A study of Mus musculus with 3 samples.

Results

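The neutrophil granule genes are 10 genes chosen by name: S100a8, S100a9, Ngp, Camp, Ltf, Lcn2, Mpo, Elane, Mmp8 and Retnlg. They were found through their Ensembl transcript identifiers among 36835 genes with a level in the table, and all 10 were present. Mpo and Elane were taken as early genes and the other 8 as late genes. The study asked whether macrophages of mouse kidney tumors express Foxp3, and sequenced RNA of type-1 macrophages (M1), type-2 macrophages (M2) and CD4 T cells (CD4), with 1 library each. M1 were gated as CD11b high with intermediate staining for the macrophage surface antigen encoded by Emr1, M2 as CD11b intermediate with high staining for it, and CD4 T cells as positive for TCR beta and CD4. The mice were BALB/C and carried intra-kidney tumors of Renca, a mouse renal carcinoma line, which the study's description of the sequencing names as its derivative Renca Ch+ L+, made with Cherry and luciferase reporters. For the macrophages 30 tumors were pooled, and 4 spleens of tumor-bearing mice were taken for the CD4 T cells, although another label field gives tumors as the origin of the CD4 T cells too. The labels give both day 14 and day 16 after tumor injection, and no age or sex. The remaining antibody was against CD45.2, and none specific for neutrophils is listed.

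Neutrophils make their granule proteins in waves during maturation in bone marrow. Azurophil granule proteins such as myeloperoxidase and neutrophil elastase are transcribed in promyelocytes, specific granule proteins such as lactoferrin and cathelicidin in later myelocytes, and gelatinase granule proteins later still. Transcripts of the first waves have largely gone by the time a neutrophil leaves the marrow, while S100a8 and S100a9 stay abundant in the mature cell. Inflammatory monocytes also express S100a8 and S100a9, and lipocalin-2 is made by epithelium, including injured kidney tubules, as well as by neutrophils.

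Levels are in FPKM, the number of sequenced fragments of a transcript divided by its length and by the depth of the library, so that genes of unequal length can be compared. With 1 library per cell subset no test was possible, and each difference compares these libraries rather than the cell subsets. Depth was estimated from the lowest values as 61400000 fragments for the library labelled M1, 72000000 for CD4 and 59700000 for M2. Cell type markers went against 2 of the labels. All 6 T-cell genes (Cd3d, Cd3e, Cd3g, Cd247, Lck, Cd2) were highest in the library labelled M2, with summed levels of 820 FPKM there, 4.16 in M1 and 1.04 in CD4. All 8 macrophage genes were highest in the library labelled CD4, with sums of 5649 FPKM there, 1803 in M1 and 274 in M2. Each library is therefore called by its label, and each direction rests on that label.

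The granule genes were highest in the library labelled M2 for 9 of the 10, and Mmp8 was highest in M1. Over all genes with at least 1 FPKM in some library, 46.8% were highest in M2, 27.3% in M1 and 25.9% in CD4. Mpo and Elane stayed below 1 FPKM in every library and lie outside that set. Of the 8 late genes, which lie within it, 7 were highest in M2. A gene was counted as higher or lower from a 2-fold ratio of FPKM + 1 onwards, and the added 1 FPKM shrinks the ratios of low genes. Between M1 and M2, 6 granule genes were lower in M1 and 1 was higher, where 5.73% and 4.90% of all genes were. The library labelled CD4 was lower than M2 in 7 granule genes and higher in 0, against 5.85% and 5.17% of all genes. Comparing M1 with CD4, 4 granule genes were higher in M1 and 0 lower, against 2.28% and 2.20% of all genes. Many of the 36835 genes were hardly detected, and among genes with at least 1 FPKM in either library the higher and lower shares were 14.5% and 17.0% for M1 against M2, 15.3% and 17.3% for CD4 against M2, and 7.24% and 6.98% for M1 against CD4. Median log2 ratios over the 10 genes were -1.58 for M1 against M2, -1.73 for CD4 against M2 and 0.15 for M1 against CD4, and each median over all genes was 0. In such bulk libraries, fewer cells of a type and less RNA per cell cannot be told apart.

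**Figure D1:**
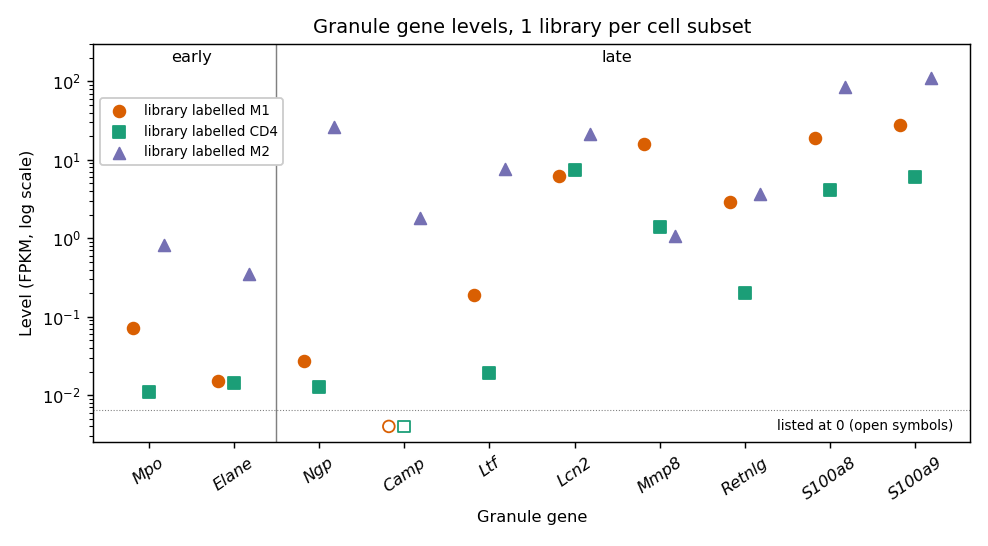
Level of each granule gene in FPKM on a log scale, with 1 point for each of the 3 libraries, early genes on the left and late genes on the right, and open symbols for values listed at 0. The library labelled M2 holds the highest point for every gene except Mmp8, and Ngp is at 26.6 FPKM there against 0.0270 in M1 and 0.0126 in CD4.

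Other cell types' genes moved with the library labelled M2. Besides the T-cell genes, 3 of 5 B-cell genes, 5 of 5 erythroid genes, 4 of 5 genes of haematopoietic progenitors and 5 of 5 of basophils and mast cells were highest there. The share over all genes with at least 1 FPKM in some library was 46.8%, and not all of the listed genes lie within that set. Summed levels in M2, M1 and CD4 were 47.0, 0.405 and 0.492 FPKM for the B-cell list, 302, 43.9 and 48.2 for the erythroid list, and 10.5, 2.56 and 1.45 for the progenitor list. The basophil and mast cell list reached 1.45, 0.0878 and 0.0115 FPKM, and no gene of it came to 1 FPKM in any library. Eosinophil genes summed to 0.540 FPKM in M2, 1.29 in M1 and 0.614 in CD4, with the eosinophil peroxidase gene Epx listed at 0 in M1 and CD4. Of the 5 eosinophil genes 3 were highest in M2 and 2 in M1, where Siglec5 alone was at 1.05 FPKM. The part of these cells in the granule gene levels was not tested.

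S100a8 and S100a9 encode the subunits of calprotectin, a calcium- and zinc-binding protein of the neutrophil cytosol. The genes lie 22597 bases apart on chromosome 3, S100a8 from 90472993 to 90473956 and S100a9 from 90496554 to 90499643 of build NCBIM37 (mm9). S100a8 was at 19.0 FPKM in M1, 4.17 in CD4 and 84.5 in M2. S100a9 stood at 28.1, 6.08 and 109.7 FPKM in the same order. Both had one order of levels, with M2 above M1 and M1 above CD4. They were the most abundant granule genes in M1 and M2, above 97.3% and 98.2% of the genes detected in M2. The ratio of M2 to M1 was 4.45 for S100a8 (95% interval 4.02 to 4.94) and 3.90 for S100a9 (3.62 to 4.21). These intervals are exact binomial ones on estimated fragments and cover counting error only, without any variation between mice. M1 exceeded CD4 by 4.56 times for S100a8 (3.70 to 5.61) and 4.62 times for S100a9 (3.98 to 5.36). The subunits also kept a similar ratio to each other, since S100a8 was 0.676 of S100a9 in M1, 0.686 in CD4 and 0.770 in M2. Among genes of inflammatory monocytes, the chemokine receptor gene Ccr2 was at 526 FPKM in M1, 183 in CD4 and 23.1 in M2. Plac8 was at 129, 8.91 and 52.1 FPKM, Ly6c2 at 64.5 and 1.97 FPKM in M1 and CD4 and listed at 0 in M2 (39.7 with all rows summed), and F13a1 at 54.3, 378 and 13.7 FPKM. Of these 4 genes 3 were highest in M1, and their part in the S100a8 and S100a9 levels was not tested.

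Ngp, Camp and Ltf are genes of the specific granule that lie within 1195382 bases of each other on chromosome 9. Ngp encodes neutrophilic granule protein, a relative of the cathelicidins, Camp the antimicrobial peptide cathelicidin, and Ltf the iron-binding protein lactoferrin. All 3 stood far above their other levels in the M2 library. Ngp (110322254 to 110325514) was at 0.0270 FPKM in M1, 0.0126 in CD4 and 26.6 in M2, which corresponds to about 2, 1 and 1929 fragments. Its ratio of M2 to M1 was 982 with an interval of 274 to 8194, and the ratio of M2 to CD4 was 2111 with an interval of 417 to 91919. Ltf (110921796 to 110945270) was at 0.191 FPKM in M1, 0.0192 in CD4 and 7.75 in M2, about 32, 4 and 1268 fragments. Lactoferrin transcripts were thus 40.6 times higher in M2 than in M1 (28.7 to 59.8). They were also 9.92 times higher in M1 than in CD4 (3.33 to 36.5), at levels too low to pass the fold used here. Camp (109749889 to 109751970) was at 1.84 FPKM in M2, about 66 fragments, and was listed at 0 in M1 and CD4. A level of 3 fragments on its transcript would be 0.0813 FPKM in M1 and 0.0693 in CD4. A listed 0 can be a failed estimate, as the B-cell receptor gene Cd79b was listed at 0 in M2 where its partner Cd79a was at 18.2 FPKM.

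The bases just upstream of these 3 genes and of Mmp8 are shown because the 4 genes share a chromosome and the granule class, while Ngp, Camp and Ltf were highest in M2 and Mmp8 in M1. The sequences are from RefSeq promoters of build GRCm38.p6, whose coordinates can differ from the mm9 gene positions given here, and each ends at the last base before the transcription start. Capitals mark matches to TTNNGCAA, a core motif of C/EBP factors, on either strand.
Ngp, chr9:110419665-110419807, plus strand: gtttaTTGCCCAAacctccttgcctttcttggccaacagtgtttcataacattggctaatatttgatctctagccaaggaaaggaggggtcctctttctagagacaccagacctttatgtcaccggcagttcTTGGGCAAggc
Camp, chr9:109849457-109849576, minus strand: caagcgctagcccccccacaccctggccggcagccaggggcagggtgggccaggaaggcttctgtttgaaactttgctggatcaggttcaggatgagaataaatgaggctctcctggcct
Ltf, chr9:111019172-111019291, plus strand: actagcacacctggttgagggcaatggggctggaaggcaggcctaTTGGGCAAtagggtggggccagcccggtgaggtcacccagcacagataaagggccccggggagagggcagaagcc
Mmp8, chr9:7558309-7558428, plus strand: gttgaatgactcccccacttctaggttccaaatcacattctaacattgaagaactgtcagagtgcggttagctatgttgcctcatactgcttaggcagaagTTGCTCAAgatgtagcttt
Ngp held 2 matches, beginning 138 and 11 bases before the start, Ltf 1 match beginning at 75 and Mmp8 1 at 19. Among all 10 granule genes, 6 held a match in the 250 bases before the start, the others being S100a9, Lcn2 and Retnlg, while 9.56% of 32851 promoters did. The PU.1 core GAGGAA was found on either strand in 6 of the 10 and in 23.3% of all promoters, and none of its matches overlapped one of TTNNGCAA in the granule genes. Camp held no match to either motif, which says only that these letters are not in its window.

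Lcn2, which encodes lipocalin-2, a protein that withholds iron from bacteria by binding their siderophores, had the smallest plain FPKM ratio between its highest and lowest library among the granule genes. It was at 6.17 FPKM in M1, 7.34 in CD4 and 21.6 in M2. M2 was the highest library, by 3.51 times over M1 (3.11 to 3.97) and 2.95 times over CD4 (2.65 to 3.28). Lcn2 was the single granule gene that was higher in CD4 than in M1 beyond counting error, by 1.19 times (1.04 to 1.37), which is below the fold used here. It was also the most abundant granule gene of the library labelled CD4, ahead of S100a9 at 6.08 FPKM. Kidney epithelial genes (Lrp2, Umod, Slc34a1, Aqp1, Epcam, Havcr1, Krt8, Krt18) summed to 36.2 FPKM in M1, 44.0 in CD4 and 103 in M2, the same order as Lcn2. Most of each sum came from Krt8 (23.3, 23.3 and 54.6 FPKM) and Krt18 (9.51, 14.8 and 35.8 FPKM). Of the 8 genes, 4 were highest in M2, 3 in CD4, with Lrp2 and Slc34a1 among them, and 1 in M1. The shares over all genes with at least 1 FPKM in some library were 46.8%, 25.9% and 27.3%. Lrp2 and, by the rows used, Havcr1 stayed below 1 FPKM in every library and lie outside that set. The highest library of a kidney gene can also depend on the rows used. With all rows summed, Umod was highest in CD4, at 17.0 FPKM against 4.42 in M2, and Havcr1 was highest in M2, at 1.78 FPKM. The part of kidney epithelium in the Lcn2 level was not tested.

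Mmp8, the gene of neutrophil collagenase, ran against the other granule genes. Located on chromosome 9 from 7558429 to 7568486, it was at 15.9 FPKM in M1, 1.38 in CD4 and 1.08 in M2. The library labelled M1 thus stood apart from the others, by 11.5 times over CD4 (10.1 to 13.2) and 14.7 times over M2 (12.5 to 17.4). CD4 and M2 were close, with a ratio of 1.28 (1.04 to 1.57), and about 2392 fragments lay behind the level in M1. With all rows of its identifier summed, Mmp8 was at 1.85 FPKM in M2 and unchanged in CD4. The order of CD4 and M2 therefore depends on the rows used. Retnlg, which encodes resistin-like gamma, a protein secreted by mature neutrophils, was at 2.90 FPKM in M1, 0.201 in CD4 and 3.63 in M2. M1 and M2 did not differ beyond counting error in Retnlg, with a ratio of M2 to M1 of 1.25 (0.967 to 1.64). Both were above CD4, M1 by 14.4 times (7.14 to 31.6) and M2 by 18.1 times (9.04 to 39.5), with about 9 fragments in CD4.

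**Figure D2:**
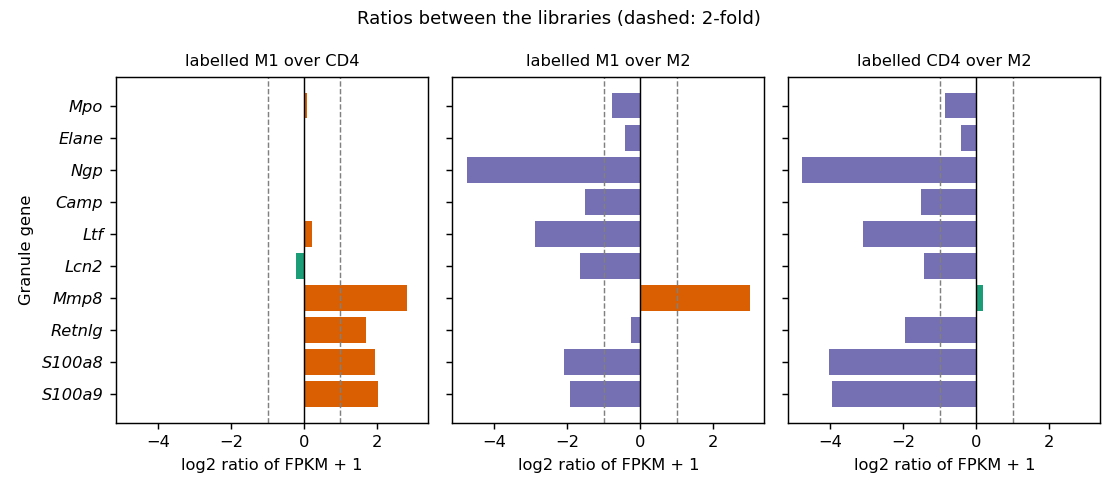
Log2 ratio of FPKM + 1 for each granule gene in the 3 comparisons, with bars in the colour of the library that was higher (orange M1, green CD4, purple M2) and dashed lines at the 2-fold limit. Mmp8 is the only gene with a bar past the limit towards M1 in the comparison with M2, while 4 genes pass it towards M1 in the comparison with CD4.

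The early genes were low in all 3 libraries. Mpo, on chromosome 11 from 87607083 to 87617915, encodes myeloperoxidase, which makes hypochlorous acid. It was at 0.0715 FPKM in M1, 0.0109 in CD4 and 0.822 in M2, from about 7, 2 and 118 fragments. Elane, on chromosome 10 from 79349057 to 79350961, encodes neutrophil elastase, a serine protease. Its level was 0.0152 FPKM in M1, 0.0143 in CD4 and 0.351 in M2, from about 1, 1 and 19 fragments. M2 was therefore highest for both, by 11.5 times over M1 for Mpo (8.15 to 44.0) and 23.1 times for Elane (3.11 to 812). In M1 the Mpo fragments came from transcripts of 2409 and 640 bases. The interval for Mpo over M1, taken on fragments, is therefore not centred on the FPKM ratio. Over CD4, M2 was 75.4 times higher for Mpo (19.3 to 594) and 24.5 times for Elane (3.64 to 952). M1 and CD4 did not differ beyond counting error in Elane, with intervals of their ratio from 0.0149 to 92.1, nor in Mpo, from 0.782 to 40.5. Neither gene passed the fold on the scale of FPKM + 1 in any comparison. A further row with the Elane identifier held 366 FPKM in M1, 336 in CD4 and 723 in M2 and was not part of these levels.

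Early genes made up a very small share of the granule transcripts. Their summed level was 0.0867 FPKM in M1, 0.0252 in CD4 and 1.17 in M2, against 72.3, 19.2 and 257 FPKM for the late genes. The late sum was thus 834 times the early sum in M1, 761 times in CD4 and 219 times in M2. It holds 8 genes against 2, and much of it is S100a8 and S100a9, which inflammatory monocytes also express. S100a8 and S100a9 made up 65.1% of the summed level of all 10 genes in M1, 53.3% in CD4 and 75.3% in M2. The log2 ratio of the early to the late sum, with 1 FPKM added to each, was -6.08, -4.30 and -6.89 in the same order. The plain sums put the early share highest in M2, while the log2 ratio put it lowest there, since the added FPKM is larger than the early sums of M1 and CD4. With all rows of an identifier summed the direction turned, to 2.27, 4.06 and 1.49, through the further Elane row alone, since without it the values were -6.13, -4.30 and -6.89. Other genes of the azurophil granule and its precursor stage were as low. Ctsg, which encodes cathepsin G, was at 0.0271 FPKM in M1, 0.196 in M2 and listed at 0 in CD4. Ms4a3, a gene of granulocyte and monocyte progenitors, was at 0.0574 FPKM in M1, 0.221 in M2 and also listed at 0 in CD4. Prtn3 and Prss57, which encode further serine proteases of this granule, were listed at 0 in every library.

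Among the late genes, the makeup differed between libraries even where scaling between libraries plays no part. Relative to the sum of S100a8 and S100a9 in the same library, a measure chosen after the levels were seen, Ngp, Camp and Ltf together came to 18.6% in M2, 0.462% in M1 and 0.310% in CD4. Mmp8 showed the opposite, at 0.556% in M2, 33.7% in M1 and 13.5% in CD4. Lcn2 was at 71.6% in CD4, 13.1% in M1 and 11.1% in M2. Retnlg was at 6.15% in M1, 1.96% in CD4 and 1.87% in M2. No library was therefore a scaled copy of another in these genes.

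**Figure D3:**
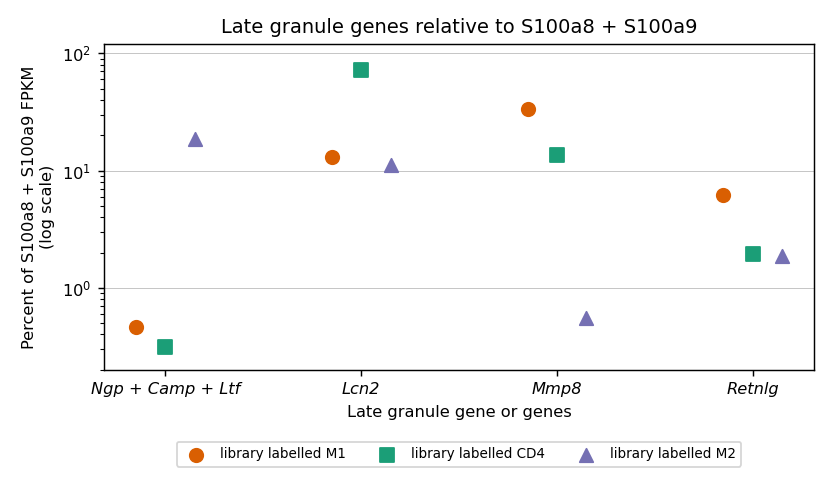
Level of late granule genes as a percentage of the summed FPKM of S100a8 and S100a9 in the same library, on a log scale, with 1 point per library. Ngp, Camp and Ltf together stand highest in the library labelled M2 (18.6%) and Mmp8 highest in that labelled M1 (33.7%).

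Another 20 neutrophil genes, listed by granule class and stage, split between the libraries. Of these, 8 were highest in M2, 5 in M1 and 5 in CD4, with 2 listed at 0 throughout. Over all genes with at least 1 FPKM in some library, the shares were 46.8%, 27.3% and 25.9% in the same order. Ctsg, Ms4a3, Fcnb, Itgb2l and Olfm4, all highest in M2, stayed below 1 FPKM in every library and lie outside that set. Prtn3, Prss57 and, by the rows used, Ly6g also lie outside it. Of the genes highest in M2, Pglyrp1, Cxcr2 and Stfa2l1 lie within it. The counts of highest libraries depend on the rows used. The metalloproteinase gene Mmp25, highest in CD4 here, was at 19.8 FPKM in M1, 2.07 in CD4 and 4.46 in M2 with all rows summed. Against CD4, 6 were higher in M1 and 1 lower, where 2.28% and 2.20% of all genes were. Against M2, 6 were higher in M1 and 1 lower, beside 4.90% and 5.73% of all genes. CD4 was higher than M2 in 5 and lower in 4, beside 5.17% and 5.85%. Median log2 ratios were 0.10 for M1 against CD4, 0.03 for M1 against M2 and -0.27 for CD4 against M2. Pglyrp1, a specific granule gene for a protein that binds bacterial cell walls, behaved like Ltf, at 1.32 FPKM in M1, 0.178 in CD4 and 9.25 in M2. Chi3l3, which encodes the chitinase-like protein Ym1 and has close paralogs that can share its reads, was at 9.04, 0.165 and 2.51 FPKM, so that M1 was highest as for Mmp8. Il1r2, the decoy receptor of interleukin-1, was at 10.3 FPKM in M1, 0.974 in CD4 and 3.32 in M2. Mmp9, the gelatinase for which the last granule class is named, was at 5.99, 1.14 and 2.98 FPKM. Cxcr2, the receptor that guides neutrophils to CXC chemokines, was at 2.36, 0.538 and 2.67 FPKM, close to the order of Retnlg. Csf3r, the receptor of granulocyte colony-stimulating factor, was at 19.7 FPKM in M1, 25.3 in CD4 and 8.40 in M2, and the formyl peptide receptor Fpr1 was at 2.13, 5.40 and 0.696 FPKM. Csf3r and Fpr1 were highest in CD4 and lowest in M2, as was the summed macrophage list (1803 FPKM in M1, 5649 in CD4 and 274 in M2). The part of monocytes and macrophages in the levels of these 20 genes was not tested. Ly6g, the surface marker that defines mouse neutrophils, was at 0.0482 FPKM in M1 and 0.0916 in CD4 and was listed at 0 in M2, while with all rows of its identifiers summed it was at 1.26 FPKM in M2.

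**Figure D4:**
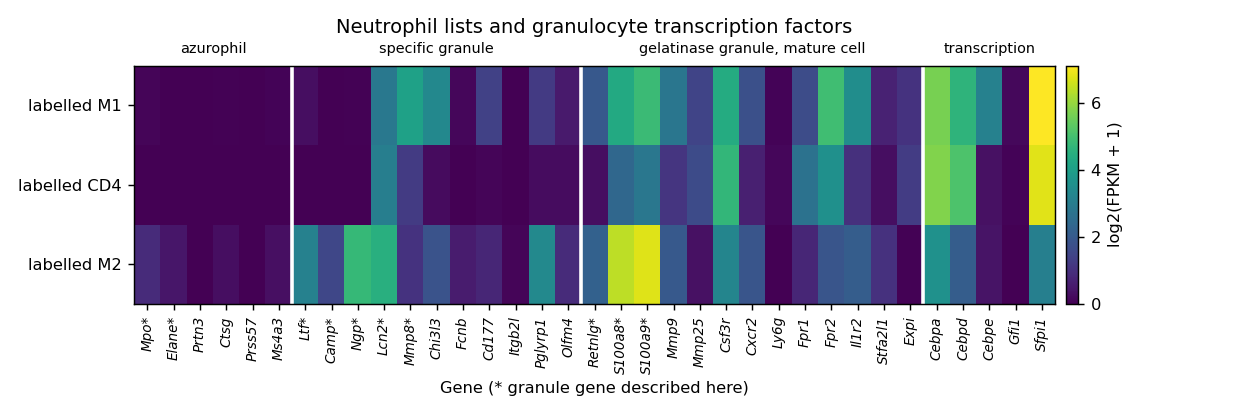
Heat map of log2(FPKM + 1) in the 3 libraries for the neutrophil lists by granule class and for 5 transcription factors of granulocytes, with asterisks on the granule genes described here. Azurophil genes are dark in each library, S100a8 and S100a9 are brightest in the library labelled M2, and Cebpe is bright in M1 alone.

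By the rows used, transcription factors of granulocyte development did not share the order of the granule genes. Cebpe, which drives specific granule genes in myelocytes, was at 7.85 FPKM in M1, 0.240 in CD4 and 0.290 in M2. It was thus 27.1 times higher in M1 than in M2, where Ngp, Camp and Ltf were highest. Cebpa, needed for the step into the granulocyte and monocyte lineage, was at 50.2, 53.3 and 11.2 FPKM, and Cebpd at 23.7, 34.2 and 3.33. Sfpi1, the older symbol of the gene for PU.1, a master factor of myeloid cells, was at 139, 112 and 7.51 FPKM. Cebpa, Cebpd and Sfpi1 were lowest in M2, as was the macrophage list, with sums of 1803 FPKM in M1, 5649 in CD4 and 274 in M2. The part of macrophages in these levels was not tested. Gfi1, a repressor needed for neutrophil maturation, was at 0.104 FPKM in M1, 0.0592 in CD4 and listed at 0 in M2, but at 6.83 in M2 with all rows summed. In all, 4 of these 5 genes were higher in M1 than in M2 and 0 lower, against 4.90% and 5.73% of all genes, but with all rows summed Gfi1 was lower in M1.

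Genes for receptors and inhibitors of the granule products were read out beside them. Tlr4, a receptor for calprotectin, was at 21.3 FPKM in M1, 11.6 in CD4 and 3.37 in M2, and Fpr2, a receptor for cathelicidin, was at 29.9, 10.9 and 2.70 FPKM. Both were highest in M1 and lowest in M2, where S100a8, S100a9 and Camp were highest. Ager, which encodes a further receptor of S100 proteins, lay between 1.36 and 1.87 FPKM. Slc22a17, the gene of a lipocalin-2 receptor, was listed at 0 in M1 and was at 1.93 FPKM in CD4 and 0.571 in M2. With all rows summed it was at 1.44 FPKM in M1, 3.05 in CD4 and 1.11 in M2. Among inhibitors, Slpi, which blocks elastase and cathepsin G, was at 46.0 FPKM in M1, 32.9 in CD4 and 70.0 in M2. Serpinb1a, an intracellular inhibitor of the same proteases, was at 2.45, 1.58 and 4.25 FPKM, and the secreted antiprotease gene Serpina1a did not exceed 0.194 FPKM. Timp1 and Timp2 inhibit metalloproteinases such as collagenase. Timp1 was at 27.0 FPKM in M1, 10.7 in CD4 and 9.21 in M2, in the order of Mmp8 by the rows used, and Timp2 at 46.2, 137 and 37.2 FPKM.

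The genes whose levels over the 3 libraries were most like the median of the granule genes were Akna, Rassf5, Rab27a, Parvg and 9130208D14Rik. Likeness was the distance between log2(FPKM + 1) values centred on each gene's mean, among 7033 genes with at least 10 FPKM in some library. The distances lay between 0.114 and 0.139. Akna was at 23.7 FPKM in M1, 12.2 in CD4 and 53.7 in M2. With 3 libraries such a distance is a description of levels alone.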

How the data were processed

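RNA of 3 sorted cell subsets was sequenced in 1 library each as paired reads of 51 bases. The authors aligned the reads to mouse genome MM9 with Bowtie and TopHat, assembled transcripts with Cufflinks guided by Ensembl release 67, and deposited transcript levels in FPKM. FPKM shares fragments between overlapping transcripts by a model and keeps no read counts. A dash stands in place of a value in some rows. How the 3 assemblies were joined is not given in the sources used here, and Cuffdiff is named in the submitters' processing notes without a role.

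Of 92519 identifiers in 135070 rows, 90316 matched transcripts of NCBIM37 (mm9) in GENCODE, which follows Ensembl release 65. For each identifier the first row with a value in all 3 columns was kept, and rows were summed per gene. The granule genes had 20 such rows and 3 further ones. Ratios were taken as log2 of FPKM + 1, with a 2-fold limit. No test was possible with 1 library per group, and no p-value is given. Depth was estimated from the most frequent value of FPKM times length below -4.8 on the log2 scale, over 2196 single-transcript genes of 2500 to 8000 bases, and other length ranges gave 61000000 to 61800000 fragments for M1, 72000000 to 74000000 for CD4 and 59300000 to 61000000 for M2. Numbers of fragments are therefore approximate. Intervals for ratios are exact binomial (Clopper-Pearson) intervals at 95% on these fragments, and a floor of 3 fragments was used for values listed at 0.

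The granule genes, the gene lists and the comparisons were chosen with earlier results of these data known. The genes named were the 10 granule genes, members of the lists, and the 5 genes with the most similar pattern among those with at least 10 FPKM in some library. Alternatives were all rows or the highest row of a gene, a pseudocount of 0.1, scaling by median ratios over 9821 genes, a minimum of 1 FPKM, and other choices of early and late genes. The 2-fold calls, with changed genes at 10 FPKM or more, and the depth estimate were tested on simulated data. The intervals, the early and late sums and the pattern distances were not. The summed level of the monocyte list and 1 of its genes are not reported here. The work was done in Python 3.11.15 with pandas 2.3.3 and numpy 2.4.6, intervals came from scipy 1.17.1, and plots from matplotlib 3.10.9.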

Additional observations from a re-analysis of the deposited data

Results flagged for a closer look

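Rows that repeat an identifier of a granule gene held signal outside the levels above. The further Elane row was at 366 FPKM in the library labelled M1, 336 in CD4 and 723 in M2, where the row used was at 0.351 FPKM or lower. Among the 24 rows around the further row, 23 had a dash in at least 1 library, while 0 of the 24 around the row used had one. A further S100a8 row was at 3.00 FPKM in the library labelled M1, and a further Mmp8 row at 0.771 FPKM in M2, each with dashes in the other libraries. All of these values were above the level of 3 fragments, and the source of these rows was not tested.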

How the results depend on the processing

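No paired analysis was possible because the design has a single library for every subset, and for that reason none could be left out. The counts of granule genes past the 2-fold limit stayed within 1.5 times of those given, and the median ratios kept their sign, under all rows, the highest row, a pseudocount of 0.1, scaling and a minimum of 1 FPKM. With a pseudocount of 0.1 the median log2 ratio of the granule genes was 0.96 for M1 against CD4, -2.06 for M1 against M2 and -3.89 for CD4 against M2. With the 5 granule genes at 1 FPKM or more in M1 or CD4 it was 1.95, and with the 8 such genes in CD4 or M2 it was -2.52. The log2 ratio of the early to the late sum turned from -6.08 to 2.27 in M1, from -4.30 to 4.06 in CD4 and from -6.89 to 1.49 in M2 with all rows summed, and to 2.32, 4.14 and 1.49 with the highest row, both through the further Elane row. In settings chosen after seeing the data, leaving out that row alone or Elane altogether, the ratio stayed within counting error of its value in each library. It was -8.60, -7.27 and -7.66 in M1, CD4 and M2 with a pseudocount of 0.1, and -4.59, -3.28 and -4.87 without S100a8 and S100a9, both by construction. Of 120 values of single granule genes under the alternatives, 94 stayed within counting error, 26 moved beyond it and 0 changed sign among those past the limit. Part of the 94 was fixed in advance, since Ngp, Camp, Ltf, Lcn2 and Retnlg each have a single row above 0. Summing all rows or taking the highest row could not change these genes. Scaling by median ratios used factors of 0.996 for M1, 0.979 for CD4 and 1.02 for M2 and changed no count. Depth limits what can be said of Ngp, Elane and Mpo in M1 and CD4, which rest on 1 to 7 fragments.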
